A study of Drosophila melanogaster with 9 samples.

Results

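The proteasome subunit genes were taken as every gene whose name in the deposited tables begins with Prosalpha, Prosbeta, or Rpn or Rpt followed by a digit, case-sensitive, which gave 47 of 17562 listed genes. Of these, 32 encode the standard subunits and 15 are variants, the duplicated genes whose names carry a T or an R after the subunit number. The standard set has 7 core alpha, 7 core beta, 6 base ATPase, 4 other base and 8 lid genes. The small lid subunit Sem1 is not taken in by the name rule. It is left out of all counts of standard and lid genes, and was read in the list of activators, inhibitors and assembly factors. RNA was measured by sequencing in pools of 20 dissected brains from adult female Drosophila melanogaster aged 4 to 6 days, in 3 groups of 3 pools each. The first group carried a mutation in PGRP-LB, which encodes an enzyme that degrades the bacterial cell wall polymer peptidoglycan, and had been fed the bacterium Ecc15 (PGRP-LB Ecc15). The second was wild type fed Ecc15 (WT Ecc15), and the third was wild type without bacteria (WT control), fed sucrose according to the design text. Exposure lasted 16 h in the protocol, whereas the design text gives 24 h of diet. The mutant column is headed PGRP-LBD, and the sources used here describe neither the nature of the mutation nor the strain backgrounds. The series asks whether peptidoglycan that reaches the brain alters transcription there.

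The proteasome is the large protease that degrades proteins marked with ubiquitin. Its core particle stacks rings of alpha subunits, which gate the entry, on rings of beta subunits, some of which hold the catalytic sites. The regulatory particle caps the core: its base holds a ring of ATPases (Rpt) that unfold substrates together with scaffold and ubiquitin-receiving subunits, and its lid removes ubiquitin chains. In Drosophila several variant genes are known mainly from the testis, and the transcription factor cnc raises proteasome genes when the protease is inhibited.

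All values are normalized counts, which the authors scaled per library and rounded, separately in a table of PGRP-LB Ecc15 with WT control and a table of WT Ecc15 with WT control. Tests were therefore made within a table, and the exposed groups, which share their controls, are set side by side only. PGRP-LB Ecc15 differed from WT control in genotype and exposure, and effects of these cannot be told apart, because no unexposed mutant library was analysed here. The libraries of a group are marked S1 to S3, and the reads counted per library were estimated at 19.4 to 30.7 M (M, mega), lowest in WT Ecc15 S2. The RNA of PGRP-LB had values of 687, 1359 and 721 in PGRP-LB Ecc15, against 164, 120 and 151 in WT control. In WT Ecc15 it had 335, 261 and 224, against 167, 122 and 154 in WT control, so exposed wild type also lay above the controls. A total over the gene does not check the label of a mutation of unknown kind. The labelled tissue was checked with 7 neuronal markers, whose sum was 210723 to 225275 in PGRP-LB Ecc15 libraries, against 208813 to 239862 in WT control. In the other table the sum ran between 231097 and 246517 in WT Ecc15, against 211600 and 244890 for its WT control libraries. Summed glial markers (7 genes) were at 79862 to 85191 in PGRP-LB Ecc15, against 100556 to 114673 in WT control. In WT Ecc15 they were at 99887 to 102070, against 101900 to 116588 in WT control. In PGRP-LB Ecc15, 4 of the 7 were called lower, beside 6.26% of all genes tested. The part of these markers in the proteasome values was not tested, and fewer cells of a type and less RNA per cell cannot be told apart in pooled brains.

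Standard subunit genes were counted at similar levels in the brain, apart from 1 gene. Set per kilobase of exon, so that genes of different length can be compared, mean levels in WT control ran from 639 ± 59.1 for the base scaffold Rpn2 to 1814 ± 240.4 for Prosbeta5, the chymotrypsin-like catalytic subunit (SD, n = 3). That is a 2.84-fold range over 31 genes. Control levels per kilobase are given as scaled with PGRP-LB Ecc15. The core alpha gene Prosalpha1 lay far below, at 188 ± 20.6 per kilobase in PGRP-LB Ecc15 and 100.1 ± 12.9 in WT control, and with it the range was 18.1-fold. The level of Prosalpha1 is uncertain, because its reads may be split with a neighbouring copy, CG30382. That copy was at 72.5 ± 3.79 per kilobase in WT control, and the counts of both genes were far below Rpn2. How reads that match both copies were assigned or left out was not tested. The counts therefore do not settle how strongly either gene is expressed. The highest levels after Prosbeta5 were those of the ubiquitin receptor Rpn10, at 1699 ± 115 per kilobase in WT control, and of Prosalpha2, at 1604 ± 136. When the 32 genes were ordered by their WT control level, 29 of the 31 neighbouring pairs had overlapping library values. Sorting places genes of close level side by side, so this count does not measure how similar the whole set is. The pairs that did not overlap were Prosbeta6 above Rpt5, and Rpn2 above Prosalpha1. Median levels per kilobase in WT control were close between roles, at 1108 for core alpha, 1097 for core beta, 1355 for base ATPases, 865 for the other base genes and 1061 for the lid.

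**Figure D1:**
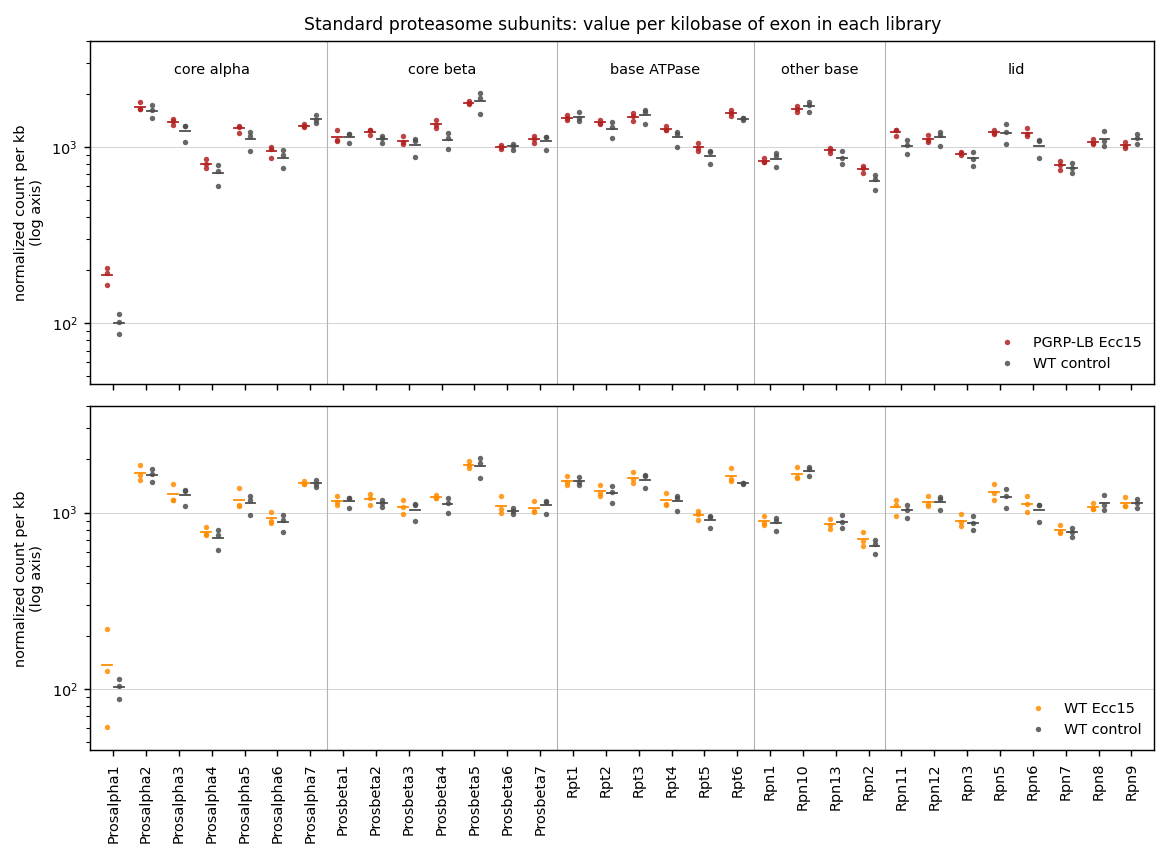
Normalized count per kilobase of exon (log axis) of the 32 standard subunit genes in each library (points) with group means (bars), PGRP-LB Ecc15 with WT control above and WT Ecc15 with WT control below. Prosalpha1, whose reads may be split with a copy, sits far below the other 31 genes, which span a 2.84-fold range of means in WT control.

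The summed share of proteasome RNA did not differ between groups beyond the spread of libraries. The 47 genes held 0.188%, 0.189% and 0.191% of all values in PGRP-LB Ecc15 libraries S1 to S3, against 0.204%, 0.192% and 0.173% in WT control. In WT Ecc15 they held 0.182%, 0.209% and 0.183%, against the same 3 control shares. The exposed libraries all lay inside the control range but for WT Ecc15 S2, which was above every control. The ratio of summed core to summed regulatory particle values spanned 0.458 to 0.468 over the PGRP-LB Ecc15 libraries, 0.459 to 0.464 over WT Ecc15, and 0.455 to 0.465 over WT control, and these ranges overlap.

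The standard subunits varied together from library to library. WT control S3 was the lowest control for 30 of 32 standard genes, while over all genes with a mean of at least 500 it was the lowest for 41.2%. The median ratio of a standard gene to its WT control mean was 1.03, 1.09 and 1.05 in PGRP-LB Ecc15 S1 to S3, against 1.06, 1.04 and 0.899 in WT control S1 to S3. In the other table this ratio was 0.993, 1.12 and 0.979 in WT Ecc15, against 1.06, 1.04 and 0.903 in WT control. WT Ecc15 S2 was the highest exposed library for 31 of 32 standard genes, compared with 37.6% of all genes at that level, and it was also the shallowest library; the part of depth in this was not tested. The medians of the standard genes and of each role, and the counts above 0 and without overlap, are given for all libraries and then with WT control S3 or WT Ecc15 S2 left out.

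**Figure D2:**
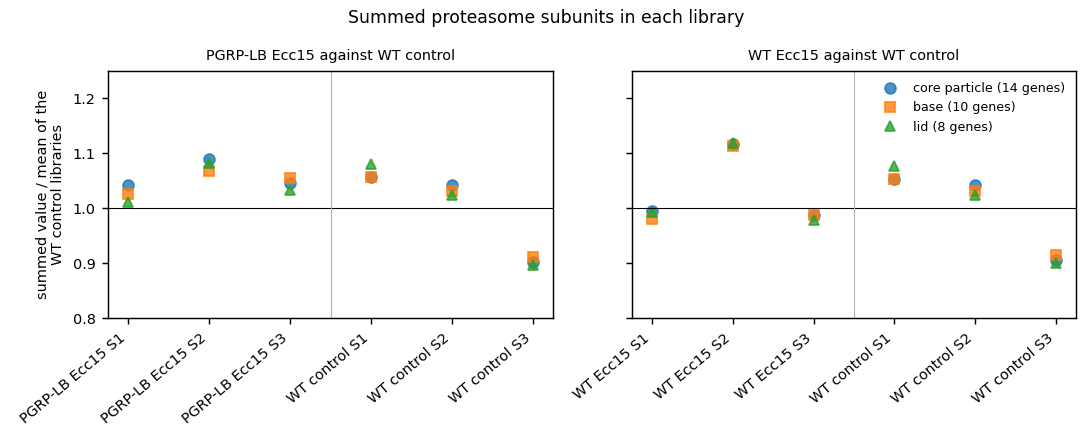
Summed values of the core particle (14 genes), base (10 genes) and lid (8 genes) in each library, divided by the mean of the WT control libraries of the same table. The 3 parts move together within each library: WT control S3 is near 0.9 in both tables, and WT Ecc15 S2 is the highest.

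Of the proteasome genes, 41 had a mean of at least 1 and were tested in each table, all 32 standard genes and 9 variants. The test was limma on log2(value + 1) across the whole table. It was two-sided, p-values were adjusted by the Benjamini-Hochberg method over all genes tested, and a gene was called where the adjusted p was under 0.05. Of the other 6, Prosalpha4T2, Prosalpha6T, Prosbeta4R2, Prosbeta5R1, Prosbeta5R2 and Rpn12R, no library held more than 3.

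In PGRP-LB Ecc15 against WT control, 1 proteasome gene was called higher, Prosalpha1, and 0 were called lower. Among all 13384 genes tested, 9.65% were called higher and 6.26% lower. The authors' deposited table likewise called Prosalpha1 higher and 0 lower, beside 9.03% of its genes called higher and 6.19% lower. At an unadjusted limma p under 0.05, 6 proteasome genes were higher and 0 lower, beside 17.5% of all genes tested higher and 13.9% lower. Of the standard genes alone, 5 were higher and 0 lower at that threshold. Without WT control S3, 3 standard genes were higher and 1 lower, beside 2294 higher and 1901 lower of all 13420 genes tested. The median log2 change of the standard genes was 0.09, beside 0.01 over all genes tested, and 21 of the 32 were above 0. Values of the 2 groups did not overlap for 10 standard genes that were higher and 1 that was lower, while 18.8% of all genes tested were higher and 16.9% lower without overlap. Without WT control S3, these counts were 10 higher and 6 lower, beside 24.5% and 23.0% of all genes, the median was 0.02 for both the standard genes and all genes, and 19 of 32 were above 0. The 95% interval of the change lay within 1.5-fold in either direction for 31 of 32 standard genes (96.9%), beside 78.5% of all genes with a mean of at least 500. The exception was Prosalpha1.

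Among the core alpha genes, Prosalpha1 (FBgn0263121, chromosome arm 2R, minus strand) had values of 160, 199 and 187 in PGRP-LB Ecc15, against 84, 109 and 98 in WT control. Every mutant library lay above every control. The log2 change was 0.90 (SE 0.18), or 1.87-fold with a 95% interval of 1.40 to 2.49, at an adjusted limma p of 0.0155, and the authors' deposited table gave an adjusted p of 0.00127. Prosalpha1 has a neighbouring copy on the same strand, listed as CG30382, which the name rule does not take in and which was looked up after the values of Prosalpha1 were seen. CG30382 had values of 100, 157 and 73 in PGRP-LB Ecc15, against 70, 72 and 65 in WT control. Its log2 change was 0.60 (SE 0.29), with an adjusted limma p of 0.215. Because reads can be shared between such copies, the split between them is uncertain. With the copies added together, the log2 change was 0.80 with an adjusted limma p of 0.0199. Reads that match both copies may also have been left out of the counts. The sum cannot restore such reads, so it does not settle the change of either gene. Prosalpha1 also overlaps phr on the opposite strand, and no source used here says whether reads were counted by strand. The call was lost under quantile normalization, at an adjusted limma p of 0.0694, and without PGRP-LB Ecc15 S2 (0.0667) or S3 (0.0637).

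No other core alpha gene was called. Prosalpha3 had 1358, 1405 and 1301 in PGRP-LB Ecc15, against 1273, 1283 and 1035 in WT control, with a log2 change of 0.18 and an adjusted limma p of 0.247. Prosalpha5 had 1136, 1233 and 1249 in PGRP-LB Ecc15, against 1152, 1096 and 893 in WT control, with a log2 change of 0.21 and an adjusted limma p of 0.230. In both genes the gap was widest to WT control S3. Prosalpha7 was the 1 standard gene that was lower without overlap, at a log2 change of -0.12, and the median over the 7 core alpha genes was 0.18.

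None of the catalytic core beta genes was called. Prosbeta1, the caspase-like subunit, had 1059, 930 and 924 in PGRP-LB Ecc15, against 1015, 896 and 1005 in WT control. Prosbeta2, the trypsin-like subunit, had 1283, 1286 and 1213 in PGRP-LB Ecc15, against 1157, 1196 and 1092 in WT control. Prosbeta5 had 2010, 2072 and 1994 in PGRP-LB Ecc15, against 2292, 2146 and 1762 in WT control. The log2 changes were -0.00 for Prosbeta1, 0.14 for Prosbeta2 and -0.02 for Prosbeta5, and of the 3 only Prosbeta2 had groups that did not overlap. Their 95% intervals were 0.86 to 1.16-fold for Prosbeta1, 0.98 to 1.23-fold for Prosbeta2 and 0.84 to 1.16-fold for Prosbeta5. Of the non-catalytic beta genes, Prosbeta4 (FBgn0032596, 2L) had 1045, 1153 and 1086 in PGRP-LB Ecc15, against 911, 976 and 794 in WT control. Each mutant library of Prosbeta4 lay above each control, with a log2 change of 0.30 (SE 0.10) and an adjusted limma p of 0.0793. Prosbeta3 had 954, 1051 and 969 in PGRP-LB Ecc15, against 1013, 988 and 803 in WT control, and these groups overlapped. Over the 7 core beta genes the median log2 change was 0.03.

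The base ATPases, which unfold substrates, gave a median log2 change of 0.12 in PGRP-LB Ecc15 against WT control. Rpt4 had 1920, 1831 and 1837 in PGRP-LB Ecc15, against 1790, 1743 and 1466 in WT control. Rpt5 had 1552, 1704 and 1601 in PGRP-LB Ecc15, against 1545, 1513 and 1300 in WT control. Rpt6 had 2188, 2277 and 2113 in PGRP-LB Ecc15, against 2049, 2036 and 1995 in WT control. In all 3 genes the mutant libraries lay above the controls, for Rpt5 by a gap of few counts, and the log2 changes were 0.17 for Rpt4, 0.16 for Rpt5 and 0.11 for Rpt6, with adjusted limma p-values of 0.246, 0.253 and 0.231. The other ATPase genes, Rpt1, Rpt2 and Rpt3, ran from -0.02 to 0.13.

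None of the 4 other base genes was called in PGRP-LB Ecc15 against WT control, and they include ubiquitin receptors and scaffolds. Rpn10 had 2243, 2330 and 2435 in PGRP-LB Ecc15, against 2551, 2463 and 2233 in WT control. The other receptor, Rpn13, had 1654, 1547 and 1616 in PGRP-LB Ecc15, against 1591, 1447 and 1331 in WT control. Both receptors overlapped between groups, at log2 changes of -0.05 for Rpn10 and 0.14 for Rpn13. Rpn2, a large scaffold of the base (FBgn0028692, 3R), had 2439, 2583 and 2647 in PGRP-LB Ecc15, against 2350, 2232 and 1957 in WT control. Its groups did not overlap, at a log2 change of 0.23 (SE 0.08) and an adjusted limma p of 0.102. The other large scaffold, Rpn1, had 2492, 2629 and 2482 in PGRP-LB Ecc15, against 2796, 2691 and 2351 in WT control, with overlap and a log2 change of -0.04. Over the 4 other base genes the median log2 change was 0.05.

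In the lid, Rpn11, the deubiquitinase that strips chains from substrates (FBgn0028694, 2L), had 1391, 1511 and 1501 in PGRP-LB Ecc15, against 1319, 1235 and 1108 in WT control. All 3 mutant libraries lay above the controls, with a log2 change of 0.27 (SE 0.08) and an adjusted limma p of 0.0745. The lid scaffold Rpn6 had 2236, 2487 and 2314 in PGRP-LB Ecc15, against 2111, 2123 and 1687 in WT control, with a log2 change of 0.26 and an adjusted limma p of 0.140. Rpn9, another structural lid subunit, had 1703, 1791 and 1650 in PGRP-LB Ecc15, against 1883, 1980 and 1738 in WT control, a log2 change of -0.12 with overlap. Rpn11, Rpn6, Rpn2, Prosbeta4, Prosalpha1 and the variant Rpt3R made up the 6 genes past an unadjusted p of 0.05. Over the 8 lid genes the median log2 change was 0.03.

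In WT Ecc15 against WT control, 0 proteasome genes were called higher and 0 lower by limma. At an unadjusted limma p under 0.05, 0 were higher and 1, the variant Prosbeta2R2, was lower, beside 4.75% of all genes tested higher and 2.54% lower. The authors' deposited table called 0 in either direction. Among all 13085 genes tested, limma called 0.122% higher and 0.00% lower, and the authors' deposited table called 0.830% of its genes higher and 0.113% lower, so few genes of any kind were called here. The median log2 change of the standard genes was 0.04, beside -0.00 over all genes tested, with 28 of 32 above 0. Without WT Ecc15 S2 the median was -0.01, and without WT control S3 it was -0.02, with 11 of 32 above 0 in each case. The groups did not overlap for 1 standard gene that was higher, Rpt6, and 0 that were lower, beside 6.93% of all genes tested higher and 5.67% lower without overlap. Without WT Ecc15 S2 these counts were 2 higher and 1 lower, beside 10.4% and 9.30% of all genes, and without WT control S3 they were 1 and 0, beside 15.7% and 14.5%. The 95% interval of the change lay within 1.5-fold for 31 of 32 standard genes, beside 93.3% of all genes with a mean of at least 500.

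Prosalpha1 was the 1 standard gene whose interval was wider in WT Ecc15. Its values were 213, 59 and 123 in WT Ecc15, against 85, 111 and 101 in WT control, so that exposed libraries lay on both sides of the controls. The log2 change was 0.23 (SE 0.43) with an adjusted limma p of 0.923. It was 0.71 without WT Ecc15 S2 and -0.20 without WT Ecc15 S1. The copy CG30382 had 40, 12 and 59 in WT Ecc15, against 71, 73 and 66 in WT control, with a log2 change of -1.16 and an adjusted limma p of 0.686. Added together, the copies had a log2 change of -0.18 with an adjusted limma p of 0.943.

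The catalytic subunits overlapped between WT Ecc15 and WT control. Prosbeta1 had 942, 1063 and 980 in WT Ecc15, against 1028, 910 and 1026 in WT control. Prosbeta2 had 1243, 1326 and 1146 in WT Ecc15, against 1172, 1216 and 1115 in WT control. Prosbeta5 had 2108, 2242 and 2050 in WT Ecc15, against 2323, 2182 and 1799 in WT control. In each of these 3 genes WT Ecc15 S2 was the highest exposed library, and the log2 changes were 0.01 for Prosbeta1, 0.08 for Prosbeta2 and 0.03 for Prosbeta5. Prosbeta4 had 985, 1031 and 984 in WT Ecc15, against 923, 992 and 810 in WT control, at a log2 change of 0.14. Prosbeta6 had 936, 1167 and 985 in WT Ecc15, against 999, 969 and 930 in WT control, where 1 exposed library stood above the rest.

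The remaining core alpha genes with the smallest p-values in WT Ecc15 followed the same library order. Prosalpha4 had 881, 971 and 885 in WT Ecc15, against 935, 878 and 723 in WT control. Prosalpha5 had 1024, 1299 and 1037 in WT Ecc15, against 1167, 1115 and 912 in WT control. Prosalpha6 had 939, 1085 and 962 in WT Ecc15, against 973, 1039 and 830 in WT control. All 3 genes peaked in WT Ecc15 S2, had their lowest value in WT control S3 and gave log2 changes of 0.12, 0.07 and 0.07.

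In the regulatory particle, Rpt6 had 2164, 2505 and 2120 in WT Ecc15, against 2076, 2070 and 2037 in WT control. Its exposed libraries lay above the controls, with a log2 change of 0.13 (SE 0.07) and an adjusted limma p of 0.720. Rpt3 had 2297, 2646 and 2413 in WT Ecc15, against 2494, 2543 and 2132 in WT control. Rpt5 had 1469, 1660 and 1604 in WT Ecc15, against 1565, 1538 and 1327 in WT control. These 2 ATPase genes overlapped between groups, at log2 changes of 0.04 for Rpt3 and 0.10 for Rpt5. Among the other base genes, Rpn2 had 2219, 2652 and 2356 in WT Ecc15, against 2381, 2269 and 1998 in WT control. Rpn10 had 2241, 2567 and 2265 in WT Ecc15, against 2585, 2504 and 2280 in WT control, the lowest log2 change of the standard genes at -0.06. Rpn13 had 1341, 1546 and 1431 in WT Ecc15, against 1612, 1471 and 1359 in WT control, and none of these 3 base genes was apart between groups. In the lid, Rpn11 had 1159, 1418 and 1335 in WT Ecc15, against 1337, 1256 and 1132 in WT control. Rpn5 had 2438, 2740 and 2243 in WT Ecc15, against 2597, 2359 and 2008 in WT control. Rpn6 had 2167, 2403 and 1959 in WT Ecc15, against 2140, 2159 and 1722 in WT control. The lid genes overlapped as well, with log2 changes of 0.07 for Rpn11, 0.09 for Rpn5 and 0.12 for Rpn6.

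**Figure D3:**
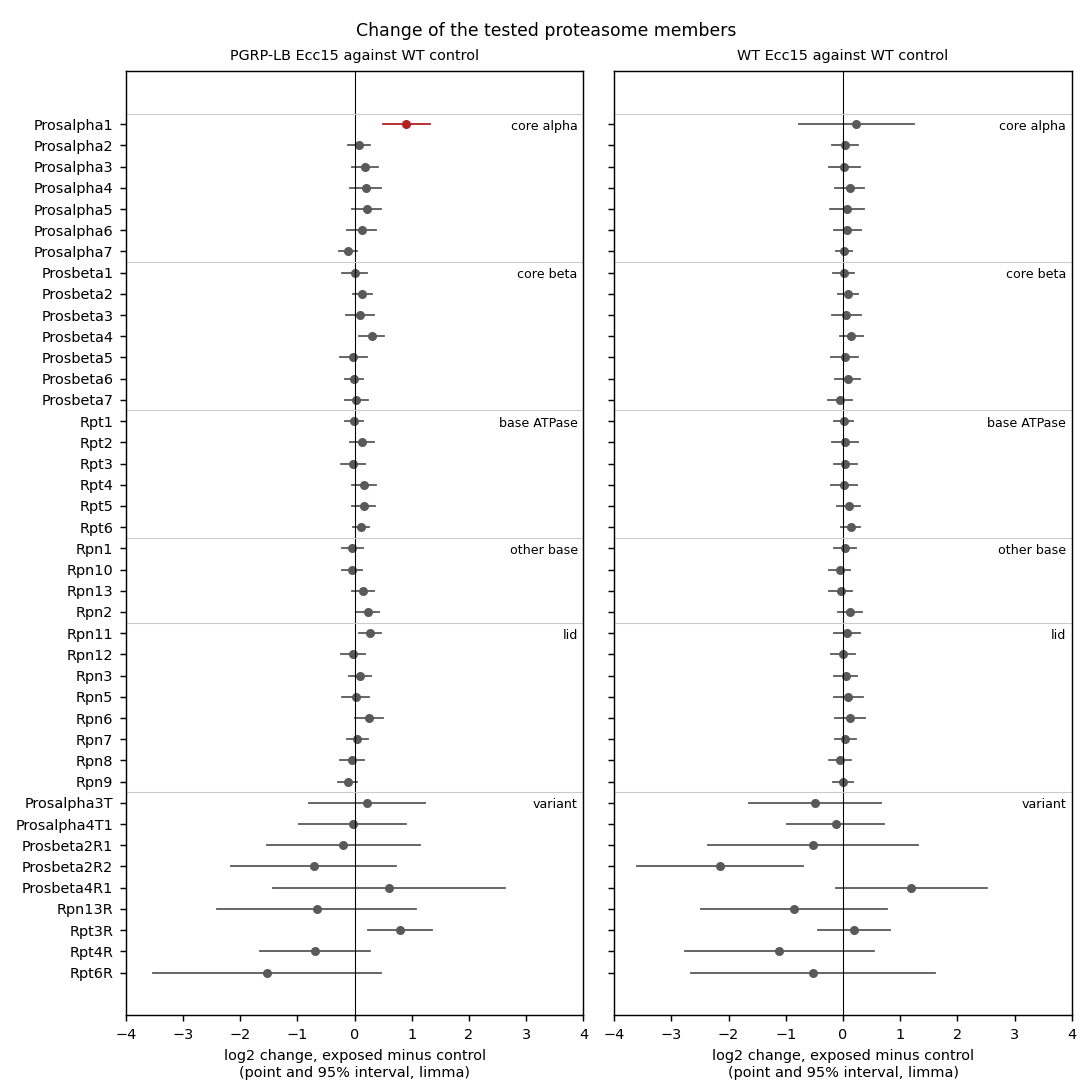
Log2 change with its 95% limma interval (exposed minus control, on log2(value + 1)) of the 41 tested proteasome genes, PGRP-LB Ecc15 left and WT Ecc15 right, ordered by role. Standard genes lie near 0 with short intervals except Prosalpha1, which is the 1 gene called (red), and variants have wide intervals.

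By role, the core and the regulatory particle had similar medians in each comparison. In PGRP-LB Ecc15 against WT control the median log2 change was 0.11 over 14 core genes and 0.07 over 18 regulatory genes. In WT Ecc15 against WT control it was 0.07 over core genes and 0.04 over regulatory genes. Summed core values were 16161 ± 404 in PGRP-LB Ecc15 and 15263 ± 1305 in WT control (SD, n = 3 each). Summed regulatory values were 34824 ± 860 in PGRP-LB Ecc15 and 33265 ± 2777 in WT control. Both differences were smaller than the SD of the controls. Without WT control S3, the role medians in PGRP-LB Ecc15 were 0.08 for core alpha, -0.01 for core beta, 0.06 for base ATPases, -0.01 for the other base genes, -0.04 for the lid and -0.14 for the tested variants. In WT Ecc15 with all libraries they were 0.07, 0.06, 0.04, -0.00, 0.04 and -0.52, in the same order. Without WT Ecc15 S2 these became -0.01, -0.01, -0.02, -0.05, -0.01 and -0.41, and without WT control S3 they were -0.02, 0.04, -0.03, -0.07, -0.01 and -0.48.

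The variant genes were expressed at low levels, and the group of 15 made up 0.213% to 0.376% of the summed proteasome values of a library. The highest per kilobase was Prosalpha4T1, an alpha variant, at 50.5 ± 11.7 in PGRP-LB Ecc15 and 54.2 ± 21.7 in WT control. Rpt3R, an ATPase variant, followed at 48.4 ± 6.17 in PGRP-LB Ecc15 and 27.8 ± 4.04 in WT control. Below them in WT control came Rpt6R, at 21.0 ± 14.9, and Prosalpha3T, at 20.6 ± 9.57, and the other 11 were at or below 3.79. These control levels are those scaled with PGRP-LB Ecc15. The highest of the 11, Prosbeta2R2, was at 4.04 in the controls scaled with WT Ecc15. Protamine genes ProtA and ProtB, which mark late male germ cells, were listed at 0 in all libraries. Of the 6 other genes on the testis marker list, can was called lower in PGRP-LB Ecc15 and 0 were called higher by limma, and none was called in WT Ecc15. In PGRP-LB Ecc15, limma called 6.26% of all genes tested lower and 9.65% higher. The list member bol was abundant in these brains, at 13170, 12350 and 12028 in PGRP-LB Ecc15, against 12534, 15481 and 14278 in WT control. The tubulin gene betaTub85D of that list had 114, 77 and 105 in PGRP-LB Ecc15, against 57, 59 and 52 in WT control, a log2 change of 0.79 (SE 0.22) with an adjusted limma p of 0.0560, and the authors' deposited table called it higher at an adjusted p of 0.0469. In WT Ecc15 betaTub85D was at 88, 85 and 87, against 58, 60 and 53 in WT control, a log2 change of 0.60 with an adjusted limma p of 0.540. Its exposed libraries lay above the controls in both tables, which share the same control libraries. The brains were from females, so genes of this list do not stand for testis tissue here. Any link of these genes to the variants' values was not tested.

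Among the variants, Rpt3R was counted at 75, 60 and 76 in PGRP-LB Ecc15, against 36, 38 and 47 in WT control. All 3 mutant libraries were higher than the controls, with a log2 change of 0.79 (SE 0.24) and an adjusted limma p of 0.0667. The WT Ecc15 libraries held 59, 40 and 43, against 37, 38 and 48 in WT control, with overlap and a log2 change of 0.19. The gene (FBgn0037742) lies on the minus strand of chromosome arm 3R between bases 9754735 and 9756510 of BDGP6. It overlaps Alg12 on the opposite strand, so that its counts carry the same doubt about strand as those of Prosalpha1.

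No difference was called for the other variants, which were low or scattered. Prosalpha4T1 had 33, 51 and 51 in PGRP-LB Ecc15, against 26, 59 and 60 in WT control. WT Ecc15 libraries held 40, 40 and 47, against 27, 60 and 61 in WT control. Control S1 was low and the exposed libraries lay within the control range. Prosalpha3T had 23, 25 and 14 in PGRP-LB Ecc15, against 28, 15 and 12 in WT control. In WT Ecc15 it had 18, 7 and 14, against 29, 15 and 12 in WT control, and both sets overlapped. Rpt6R had 13, 15 and 2 in PGRP-LB Ecc15, against 9, 52 and 30 in WT control. The WT Ecc15 values of Rpt6R were 16, 55 and 5, against 9, 52 and 31 in WT control. Within every group Rpt6R varied several-fold between pools, which is more than the groups differed. Its log2 change was -1.54 (SE 0.84) in PGRP-LB Ecc15 and -0.52 (SE 0.91) in WT Ecc15.

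The ATPase variant Rpt4R had 4, 2 and 3 in PGRP-LB Ecc15, against 5, 6 and 5 in WT control. In WT Ecc15 it had 0, 4 and 4, against 5, 6 and 5 in WT control, so that its exposed values were below the controls in both tables, at adjusted limma p-values of 0.294 and 0.756. The beta variant Prosbeta2R2 had 5, 2 and 1 in PGRP-LB Ecc15, against 3, 9 and 3 in WT control. Its WT Ecc15 values were 1, 0 and 0, against 3, 10 and 3 in WT control, at an adjusted limma p of 0.503. Prosbeta2R1 had 3, 1 and 2 in PGRP-LB Ecc15 and 1, 0 and 5 in WT Ecc15, against 1, 5 and 2 in WT control of each table. None of these variants was called at such low counts. Prosbeta4R1 had 0, 6 and 0 in PGRP-LB Ecc15 and 1, 3 and 2 in WT Ecc15, against 0, 0 and 1 in WT control of each table. Rpn13R had 2, 0 and 0 in PGRP-LB Ecc15 and 0, 0 and 1 in WT Ecc15, against 0, 2 and 3 in WT control of each table. Rpn12R had 1, 1 and 1 in PGRP-LB Ecc15 and 3, 1 and 0 in WT Ecc15, against 0 in every WT control library. Prosalpha4T2 had 0, 0 and 1 in PGRP-LB Ecc15 and 1, 0 and 2 in WT Ecc15, against 0, 1 and 0 in WT control of each table. Prosalpha6T was at 0 in all exposed libraries, against 0, 1 and 2 in WT control. Prosbeta4R2 had 0, 1 and 2 in PGRP-LB Ecc15 and 0 throughout WT Ecc15, against 1, 1 and 0 in WT control. Prosbeta5R1 and Prosbeta5R2 exceeded 2 in no library, so that these genes were close to absent from the counts. Of the variants tested, the median log2 change was -0.19 in PGRP-LB Ecc15 and -0.52 in WT Ecc15, over 9 genes with wide intervals.

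**Figure D4:**
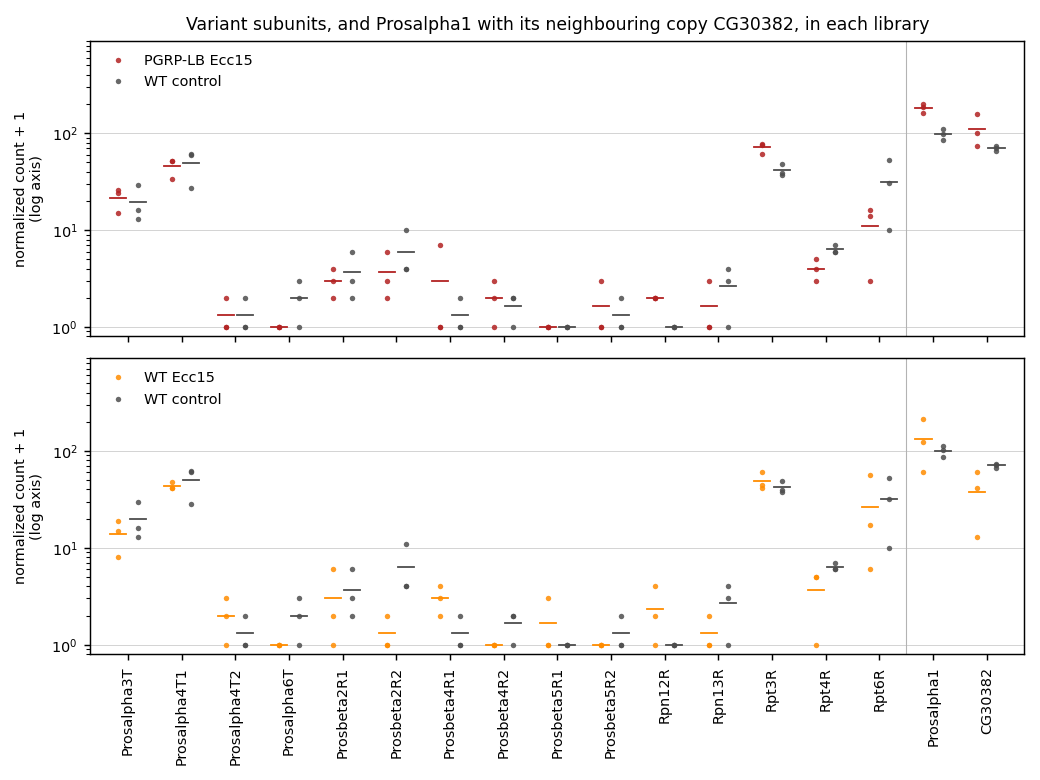
Normalized count plus 1 (log axis) of the 15 variants, and of Prosalpha1 with its neighbouring copy CG30382, in each library (points) with group means (bars), PGRP-LB Ecc15 with WT control above and WT Ecc15 with WT control below. In the upper panel Prosalpha1, CG30382 and Rpt3R have mutant libraries above all controls, as does Rpn12R with a value of 1 in each mutant library. In the lower panel the WT Ecc15 libraries of Prosalpha1 scatter around the controls, while those of CG30382 lie below them.

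Genes that act on or upstream of the proteasome were read from lists in the same fits. Of 6 activators, inhibitors and assembly factors, 0 were called by limma or in the authors' deposited table in either comparison; at an unadjusted limma p under 0.05, 1 (Uch-L5) was lower in PGRP-LB Ecc15 and 0 in WT Ecc15. This list had a median log2 change of -0.01 in PGRP-LB Ecc15 and 0.00 in WT Ecc15. Over all genes tested, 13.9% were lower at an unadjusted limma p under 0.05 in PGRP-LB Ecc15. REG, the Drosophila 11S activator cap, had 1748, 1628 and 1640 in PGRP-LB Ecc15, against 1691, 1449 and 1382 in WT control, an adjusted limma p of 0.284. PI31, a proteasome-binding regulator, had 2389, 2242 and 2358 in PGRP-LB Ecc15, against 2498, 2117 and 2464 in WT control. In WT Ecc15, REG had 1633, 1509 and 1616, against 1713, 1473 and 1411 in WT control, and PI31 had 2316, 2527 and 2286, against 2531, 2153 and 2516 in WT control. Both genes overlapped in both comparisons. The lid subunit Sem1, counted in this list, had 886, 862 and 700 in PGRP-LB Ecc15, against 790, 780 and 761 in WT control. Its WT Ecc15 values were 891, 932 and 813, against 800, 793 and 777 in WT control, higher without overlap. The log2 changes of Sem1 were 0.06 and 0.15, at adjusted limma p-values of 0.726 and 0.686.

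Of 15 genes for ubiquitin itself and its activating and conjugating enzymes, 1 was called higher and 1 lower in PGRP-LB Ecc15 against WT control. The shares over all genes tested were 9.65% higher and 6.26% lower. Ubi-p5E, a polyubiquitin gene, had 16246, 19387 and 18489 in PGRP-LB Ecc15, against 8624, 8131 and 9815 in WT control. It rose in the mutant by a log2 change of 1.03 (SE 0.10), with an adjusted limma p of 0.000880, and the groups were far apart. In WT Ecc15 its values were 8286, 8110 and 8962, against 8739, 8267 and 10021 in WT control, with overlap. The other polyubiquitin gene, Ubi-p63E, had 5507, 6021 and 6137 in PGRP-LB Ecc15, against 5656, 5189 and 5431 in WT control, a log2 change of 0.12 that was not called. Its WT Ecc15 values were 5800, 5938 and 5776, against 5731, 5275 and 5545 in WT control, a log2 change of 0.08. Polyubiquitin genes hold near-identical repeats, so reads may be split between them. The conjugating enzyme gene ben had 5023, 4680 and 4602 in PGRP-LB Ecc15, against 5469, 6188 and 5870 in WT control. It fell in the mutant by 0.29 on the log2 scale with an adjusted limma p of 0.0306, and this call was lost in 6 of 13 alternatives. The WT Ecc15 libraries held 5873, 5575 and 5619, against 5542, 6291 and 5993 in WT control, with overlap. The list's median log2 change was 0.02 in PGRP-LB Ecc15 and -0.02 in WT Ecc15, with 0 called in WT Ecc15 by limma or in the authors' deposited table, and 0 at an unadjusted limma p under 0.05.

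Of 10 measured genes that deliver ubiquitinated proteins, limma called 0 in either comparison, with 1 lower at an unadjusted p under 0.05 in each, and the authors' deposited table called 1 lower in PGRP-LB Ecc15, ref(2)P, and 0 in WT Ecc15. At an unadjusted limma p under 0.05, 13.9% of all genes tested were lower in PGRP-LB Ecc15 and 2.54% in WT Ecc15. TER94, the Drosophila p97 unfoldase, had 5581, 6095 and 5584 in PGRP-LB Ecc15, against 5695, 5433 and 4313 in WT control. In WT Ecc15 it had 5379, 5951 and 5073, against 5771, 5524 and 4403 in WT control, and WT control S3 was again the lowest library. Its log2 change was 0.17 in PGRP-LB Ecc15 and 0.07 in WT Ecc15, both without a call. The list's median log2 change was 0.05 in PGRP-LB Ecc15 and -0.02 in WT Ecc15.

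Of 10 genes of the cnc pathway, 1 was called higher and 1 lower in PGRP-LB Ecc15 against WT control. Over all genes tested, 9.65% were called higher and 6.26% lower. The gene of the factor itself, cnc, had 4627, 5014 and 4428 in PGRP-LB Ecc15, against 3349, 3511 and 3166 in WT control. It rose by a log2 change of 0.49 (SE 0.07) with an adjusted limma p of 0.00538, and every mutant library was above every control. In WT Ecc15 cnc had 3354, 3533 and 3580, against 3394, 3570 and 3232 in WT control, with overlap and a log2 change of 0.04. The gene of its small Maf partner, maf-S, had 1267, 1247 and 1287 in PGRP-LB Ecc15, against 1840, 1791 and 1533 in WT control. It fell by 0.44 on the log2 scale with an adjusted limma p of 0.0146, a call lost in 5 of 13 alternatives. In WT Ecc15 maf-S had 1479, 1362 and 1405, against 1864, 1821 and 1565 in WT control, which was below every control yet not called, at an adjusted limma p of 0.450. Keap1, which holds cnc back, had 695, 683 and 797 in PGRP-LB Ecc15, against 503, 610 and 574 in WT control, with an adjusted limma p of 0.0611 and an adjusted p of 0.0486 in the authors' deposited table. In WT Ecc15 Keap1 had 554, 551 and 556, against 510, 620 and 587 in WT control. Gclc, Gclm and GstD1, which are known targets of cnc in Drosophila, had log2 changes of 0.03, -0.21 and -0.16 in PGRP-LB Ecc15, none called. In WT Ecc15 their changes were -0.16, -0.19 and 0.03, and the exposed libraries of Gclc lay below every control. Trxr-1, also on the list, changed by -0.04 in PGRP-LB Ecc15 and -0.08 in WT Ecc15. In WT Ecc15, 0 of the 10 were called by limma or in the authors' deposited table. At an unadjusted limma p under 0.05, 3 were lower there, maf-S, rngo and Gclc. Over all genes tested, 2.54% were lower at that threshold. The list's median was 0.04 in PGRP-LB Ecc15 and -0.06 in WT Ecc15. Beside these, the standard subunits had a median log2 change of 0.09 in PGRP-LB Ecc15 and 0.04 in WT Ecc15.

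Of 16 measured genes of the COP9 signalosome, Nedd8 and the cullins, of which COP9 is built like the lid, limma called 1 lower in PGRP-LB Ecc15, Cul1, the scaffold of SCF ubiquitin ligases, and 0 higher. The shares over all genes tested were 6.26% lower and 9.65% higher. Cul1 had 6339, 5929 and 6159 in PGRP-LB Ecc15, against 7046, 7525 and 7102 in WT control. Its log2 change was -0.23 with an adjusted limma p of 0.0362, a call lost in 7 of 13 alternatives. In WT Ecc15 Cul1 had 7139, 6649 and 6831, against 7140, 7651 and 7251 in WT control, all below the controls by a change of -0.10 that was not called. In PGRP-LB Ecc15, 2 of these 16 genes were above 0, beside 51.4% of all genes tested and 45.2% of those with a mean of at least 500. The groups did not overlap for 7 that were lower and 0 that were higher, beside 16.9% and 18.8% of all genes tested. At an unadjusted limma p under 0.05, 3 were lower and 0 higher, beside 13.9% and 17.5% of all genes tested. The list's median log2 change was -0.10, beside 0.03 for the lid. In WT Ecc15, 0 of the list were called by limma or in the authors' deposited table and 0 were past an unadjusted limma p of 0.05, with a median of -0.02. The calls over all genes in PGRP-LB Ecc15 against WT control depended on the scale, with 1292 higher and 838 lower as deposited, 1140 and 1182 with equal library totals, and 1054 and 1298 with quantile normalization. The median log2 change over all genes was -0.06 with equal totals and -0.09 with quantile normalization, and that of the standard proteasome genes was 0.02 with equal totals and 0.03 with quantile normalization.

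**Figure D5:**
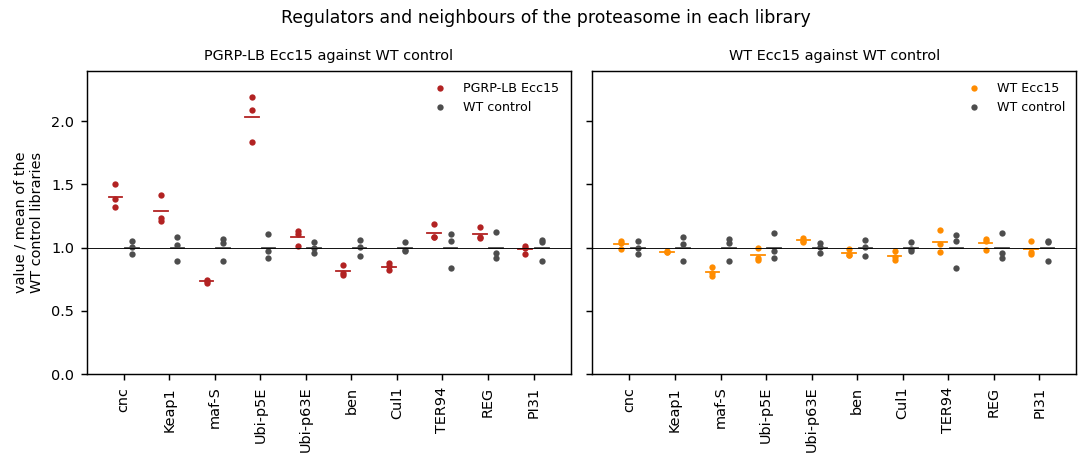
Value divided by the mean of the WT control libraries for 10 genes that act on or upstream of the proteasome, in each library (points) with group means (bars), PGRP-LB Ecc15 left and WT Ecc15 right. In PGRP-LB Ecc15, cnc and Ubi-p5E lie above the controls and maf-S below, and in WT Ecc15 the values of cnc and Ubi-p5E overlap with the controls.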

How the data were processed

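Poly(A) RNA libraries were made from 250 ng of total RNA with a stranded kit and read from both ends over 100 bases in 1 lane, per the labels' protocols. HISAT2, HTSeq, featureCounts and DESeq2 are named in the submitters' processing notes, with no role given; the sources used here give no genome build, annotation or strand setting. The authors deposited 12 sheet tables, of which 2 were used, 1 per exposed group with WT control. Their values per library are normalized counts that the authors scaled within a table and rounded, used here as a score: the same control libraries differ between tables by constant factors (median ratios 1.013, 1.017 and 1.021). Further deposited columns hold, per the file headers, a fold change, the log2 of that fold, a p-value and an adjusted p-value, all of the authors' making.

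A count test had been planned for raw counts; since these values are scaled, the test planned for that case was run, limma-trend on log2(value + 1), run in R 4.3.3 with limma 3.58.1 on each table by itself and leaving out genes whose mean was below 1. The proteasome genes and lists were chosen with earlier results of these data known. Named were the catalytic genes and Rpn11, up to 3 genes per role with the smallest p in each comparison, every gene called, every variant with a group mean of at least 1, and of each list cnc, Keap1, REG, PI31, Ubi-p63E, TER94 and up to 4 called genes. Exon lengths and locations are from BDGP6 by symbol. Scaling factors and counted reads were estimated from gaps among whole numbers. An exact permutation test of 3 against 3 libraries has 0.1 as its smallest p. Each pool holds different brains, and p-values measure the spread between pools. The procedure was tested on simulated data. Alternatives were pseudocounts of 0.5 and 5, no filter, a mean of at least 10, equal totals, quantile normalization, limma without trend, each library left out, and, chosen after seeing the data, Prosalpha1 and CG30382 added together. The fat body and haemocyte marker lists are given in the closing section.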

Additional observations from a re-analysis of the deposited data

How the results depend on the processing

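Of the 47 proteasome genes, the number called higher in PGRP-LB Ecc15 against WT control was 1 in the values as deposited, 0 under quantile normalization, 2 without the trend (Prosalpha1 and Rpt3R) and 0 to 1 when single libraries were left out, being 0 without PGRP-LB Ecc15 S2 or S3. The log2 change of Prosalpha1 was 0.59 to 0.99 over 14 alternatives and was called in 11, and that of Rpt3R was called in 1 of 13. The cause of these lost or gained calls was not tested, except that leaving out a library leaves fewer samples. No proteasome gene was called lower in any alternative of either comparison, and 0 were called in WT Ecc15. The median log2 change of the standard genes was 0.02 to 0.13 in PGRP-LB Ecc15 with libraries left out and 0.02 to 0.09 otherwise, and in WT Ecc15 -0.02 to 0.09 and 0.01 to 0.04. Calls over all genes in PGRP-LB Ecc15 were 959 higher and 519 lower without the trend, and in WT Ecc15 they were 0 without it, against 16 in the values as deposited. With single libraries left out, calls over all genes were 742 to 1059 higher and 387 to 673 lower in PGRP-LB Ecc15, and 0 to 19 higher in WT Ecc15. In PGRP-LB Ecc15, ben lost its call without the trend and without each library but WT control S1 (adjusted p 0.0549 to 0.106), maf-S without the trend, WT control S2 or any mutant library (0.0518 to 0.0606), and Cul1 without the trend or any library (0.0556 to 0.126), while cnc and Ubi-p5E were called in all 13 alternatives. The planned count tests were not run, since the values are not raw counts. No paired analysis was possible because the columns carry no replicate number of the titles. Low values limit the variants, whose intervals were wide.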

Other observations

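Markers of tissues that can adhere to dissected brains were read in the same fits; their part in the proteasome values was not tested. Summed fat body markers (8 genes) were at 79443 to 520258 in PGRP-LB Ecc15, against 86700 to 235012 in WT control, with 2 of the 8 called higher, Fbp2 and Lsp1beta. In WT Ecc15 they were at 270740 to 385520, against 88519 to 238148 in WT control, with 0 called by limma, 5 higher at an unadjusted p under 0.05 and 2 called higher in the authors' deposited table. Summed haemocyte markers (6 genes) were at 9224 to 12080 in PGRP-LB Ecc15, against 12305 to 13606 in WT control, with 0 called by limma, 1 lower at an unadjusted p under 0.05 and 1 lower in the authors' deposited table. In WT Ecc15 they were at 18454 to 23736, against 12565 to 13786 in WT control, with 0 called by limma, 4 higher at an unadjusted p under 0.05 and 4 higher in the authors' deposited table. Among neuronal markers, VGlut was called higher and VAChT lower in PGRP-LB Ecc15, and none was called in WT Ecc15. Over all genes tested in PGRP-LB Ecc15, limma called 9.65% higher and 6.26% lower, and 13.9% were lower at an unadjusted p under 0.05. The authors' deposited table called 6.19% of its genes lower there. In WT Ecc15, 4.75% of all genes tested were higher at an unadjusted limma p under 0.05, and the authors' deposited table called 0.830% of its genes higher.

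Counted with CG30382 as a proteasome gene, the share of all values was between 0.188% and 0.191% in PGRP-LB Ecc15, between 0.182% and 0.209% in WT Ecc15, and between 0.173% and 0.205% in WT control.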
